A study of Arabidopsis thaliana with 8 samples.

Results

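After exclusions by name, 16444 nuclear genes that had a probe set of their own were ranked. The array probes of 6 of these genes gave a mean log2 signal of 11 or more on the arrays labelled wild type. They were AT2G07741, AT3G07850, AT5G42530, AT3G20362, AT2G07732 and PRXR1 (AT4G21960). They were chosen by their signal on the 4 wild type arrays, ranking each gene by its brightest probe set. The rule left out genes of the plastid and mitochondrial genomes and 8 named photosynthesis, pigment and fibrillin genes, of which PSBW and RCA also lay at 11 or more. A rank limit of 150 was never reached. Their high wild type level is therefore the criterion of choice and not a finding.

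Leaf RNA of Arabidopsis thaliana was hybridised to 8 Affymetrix arrays of 1 colour, of which 4 carry the wild type label and 4 the fbn5-1 label. Both groups were untreated Col-0 plants, 3 weeks old. They were grown at 25 °C and 60% humidity under 16 h of light and 8 h of dark, on 0.5x MS medium with 1% sucrose. The fbn5-1 plants carry a T-DNA insertion in FBN5, a plastid fibrillin gene linked to plastoquinone synthesis, and fbn5-1 is a single mutant line. The labels number 4 replicates per genotype without naming separate plants or cultures, so p-values here reflect variation among these samples only, and that variation may be technical. In bulk leaf RNA, fewer cells of a type and less RNA per cell cannot be told apart.

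Array medians ran from 3.42 to 3.49, and the brightest probe set of an array lay between 12.56 and 12.77. Compression of signal near that top, which could affect the members more than dimmer nuclear genes, was not tested. Wild type array 4 stood apart, with correlations of 0.961 to 0.964 to the other wild type arrays, against 0.990 to 0.992 among those 3. The probe set of FBN5 (AT5G09820) gave 3.54, 3.35, 3.43 and 5.15 on wild type arrays 1 to 4 and 4.71, 4.52, 4.76 and 4.58 on the arrays labelled fbn5-1. The targeted gene was thus not lower under the mutant label (difference 0.775, SE 0.36, limma adjusted p = 0.173), so arrays are called by their label throughout. This value turned on 1 array: leaving out wild type array 4 gave a higher signal under the fbn5-1 label (difference 1.2025, adjusted p = 0.000534). Adding 16 to the linear signal brought the difference over all 8 arrays down to 0.375 (adjusted p = 0.23). The position of this probe set with respect to the T-DNA is not given in the sources used here. Of 10 leaf mesophyll genes listed as tissue markers, mainly Rubisco small subunit and light-harvesting genes, 0 had a probe set of their own. The leaf label could not be checked with them. Of 9 listed markers of seed, root, guard cell, epidermis and phloem, 2 had one. PYK10, from the root list, had means of 8.78 under the wild type label and 9.48 under the fbn5-1 label. By signal rank among nuclear genes, PYK10 was number 124 and number 36, so it was bright under both labels. FMA, from the guard cell list, had means of 5.675 and 5.49. The part of other cell types in the results was not tested.

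The transcript pool of a green leaf is dominated by genes for photosynthesis, many in families of near-identical copies and many encoded in the plastid. Plastid and mitochondrial DNA has also been copied into the nuclear chromosomes over evolution. In the Col-0 accession a large stretch of mitochondrial DNA lies near the centromere of chromosome 2. A probe for a locus inside such a copy can also match the organelle's own transcript. Signals of different probe sets also depend on their probes, so a rank here is a rank of signal and not of molecules.

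Most bright probe sets did not name 1 nuclear gene. Of 126 probe sets with a wild type mean of 11 or more, 42 named 1 plastid gene and 3 named 1 mitochondrial gene. Another 14 named several genes, 59 named none, and 8 named 1 nuclear gene. The label of these genes as the most abundant nuclear transcripts thus covers only the genes that this annotation can name. The tables used here pair 5 of the 6 members with no product or functional name. Only PRXR1 has one, as a peroxidase.

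**Figure D1:**
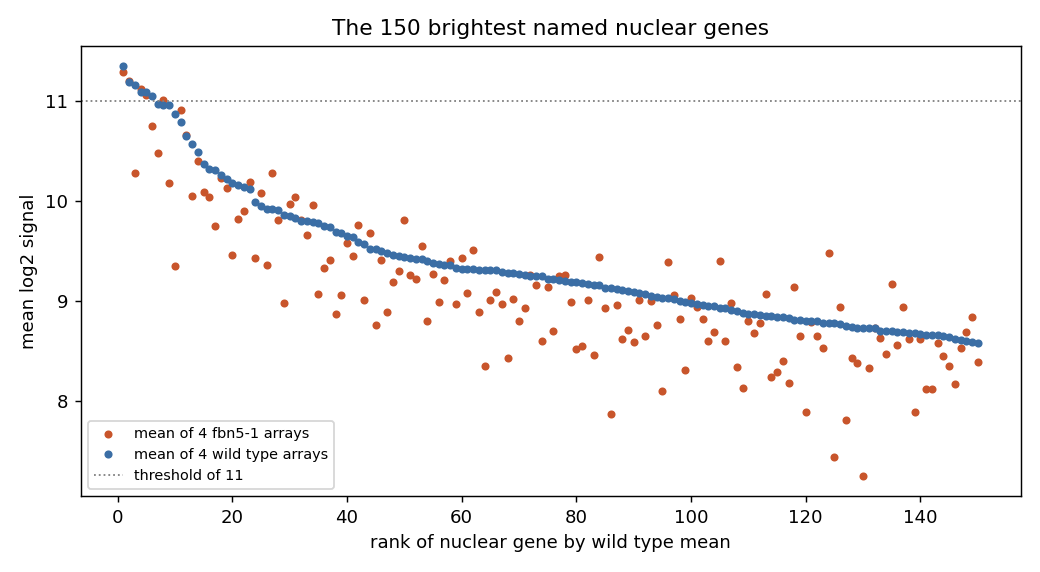
Mean log2 signal (vertical axis) of the 150 brightest named nuclear genes, ordered by their rank on the wild type arrays (horizontal axis). Blue points are means of the 4 wild type arrays and orange points means of the 4 arrays labelled fbn5-1; the dotted line is the threshold of 11, above which 6 blue points lie.

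The gene next above the threshold was PRXR1, with a wild type mean of 11.05, after AT2G07732 at 11.09 and AT3G20362 at 11.095. The 3 genes just below it were CCL at 10.97, LHB1B2 at 10.965 and ECS1 at 10.96. LHB1B2 encodes a protein of the light-harvesting antenna of photosystem II. The gap across the threshold, from PRXR1 to CCL, was smaller than the spread of PRXR1 between wild type arrays (SD 0.10). Membership at that edge is therefore within replicate error. On the arrays labelled fbn5-1, CCL had a mean of 10.485, LHB1B2 of 11.01 and ECS1 of 10.185.

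PRXR1, a peroxidase of the secreted plant type that uses hydrogen peroxide to oxidise phenolic substrates, was the one member called different between the labels. Its signal was 11.09, 11.02, 11.16 and 10.92 on wild type arrays 1 to 4. On the arrays labelled fbn5-1 it was 10.85, 10.67, 10.85 and 10.65. All 4 arrays labelled fbn5-1 lay below the lowest wild type array. The means were 11.05 ± 0.10 and 10.755 ± 0.11 (SD, n = 4), and PRXR1 fell by 0.29 on the log2 scale (SE 0.07, limma adjusted p = 0.0236), to 0.82 of the wild type signal. The rule had ranked PRXR1 on the same wild type values that enter this difference, and a gene picked for a high wild type mean near the threshold tends to show a lower value in the other group. With the genes ranked on all 8 arrays, or on the arrays labelled fbn5-1, PRXR1 was no longer a member. The call was lost when any one of wild type arrays 1, 2 and 3 or fbn5-1 arrays 2 and 4 was left out (highest adjusted p 0.0641, with wild type array 1 omitted). It held without wild type array 4 (difference -0.335, adjusted p = 0.00897).

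AT5G42530 had the largest difference of the 6, but did not pass the test. Its signal was 11.31, 11.31, 11.19 and 10.84 on wild type arrays 1 to 4, and 10.76, 10.66, 10.59 and 9.1 on the arrays labelled fbn5-1. The groups did not overlap, and fbn5-1 array 4 lay far below the other 3 arrays of its label. The means were 11.16 ± 0.22 and 10.28 ± 0.79 (SD, n = 4). The difference was -0.885 (SE 0.33, 95% interval -1.64 to -0.13, limma adjusted p = 0.101). Without fbn5-1 array 4 the difference was smaller, at -0.49, but so was its error (SE 0.12), and it was called (adjusted p = 0.0298). Over the 8 fits that each left out 1 array, the difference ran from -1.05 to -0.49 and the adjusted p from 0.0298 to 0.193. By signal rank among nuclear genes, AT5G42530 was number 3 on the wild type arrays and number 12 on the arrays labelled fbn5-1. The rule chose AT5G42530 on the same wild type values, which favours a lower value and rank under the other label. With the genes ranked on all 8 arrays, or on the arrays labelled fbn5-1, it was no longer a member.

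AT3G07850 ranked number 2 under both labels. Its signal was 11.16, 11, 11.14 and 11.45 on the wild type arrays, and 11.18, 11.39, 11.05 and 11.2 on the arrays labelled fbn5-1. The groups overlapped across nearly their whole range, and wild type array 4 was the highest of all 8. The means were 11.19 ± 0.19 and 11.205 ± 0.14 (SD, n = 4). The difference of 0.0175 had a 95% interval of -0.21 to 0.25 (SE 0.10, limma adjusted p = 0.926).

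The other 3 members, whose annotation touches organelle sequence, had overlapping groups and small differences, as AT3G07850 did.
AT2G07741 was the brightest named nuclear gene under both labels. Its signal was 11.36, 11.36, 11.46 and 11.21 on wild type arrays 1 to 4, and 11.32, 11.23, 11.27 and 11.35 on the arrays labelled fbn5-1. The 4 mutant-labelled values fell inside the wild type range. The difference was -0.055 (SE 0.06, 95% interval -0.18 to 0.07, limma adjusted p = 0.549).

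AT2G07732 had a signal of 11.08, 11.09, 11.03 and 11.16 on the wild type arrays, and 10.99, 11.11, 11.2 and 10.93 on those labelled fbn5-1. The values of both labels were interleaved, with the wider spread under the mutant label. Its difference was -0.0325 (SE 0.06, 95% interval -0.18 to 0.11, limma adjusted p = 0.766).

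AT3G20362 was measured by 2 probe sets. The brighter one, which the rule used, gave 11.01, 11.17, 11.07 and 11.13 on wild type arrays 1 to 4, and 11.14, 11.36, 11.16 and 10.82 on the arrays labelled fbn5-1. The highest and the lowest of these 8 values were both mutant-labelled arrays. The difference was 0.025 (SE 0.10, 95% interval -0.20 to 0.25, limma adjusted p = 0.892). The other probe set gave 10.66, 10.76, 10.7 and 10.73, against 10.73, 11.42, 10.99 and 10.69 on the arrays labelled fbn5-1. Array 2 was the highest mutant-labelled array on both probe sets. The second difference, 0.245 (SE 0.14, 95% interval -0.08 to 0.57), was not called either (limma adjusted p = 0.268).

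**Figure D2:**
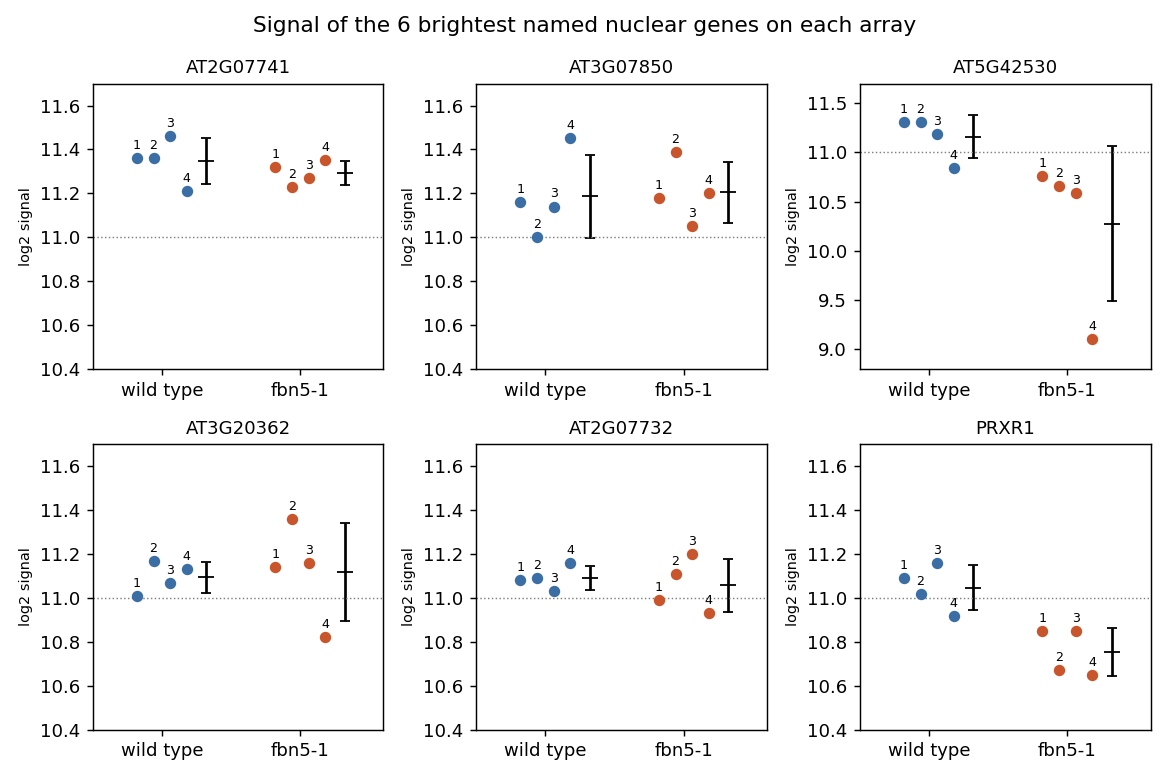
Log2 signal (vertical axis) of each of the 6 genes on each array, in blue for wild type and orange for fbn5-1, with array numbers beside the points and the mean ± SD of 4 arrays as black bars. The dotted line is the threshold of 11, and the AT5G42530 panel has a wider axis because fbn5-1 array 4 lay at 9.1; the labels are separated only for AT5G42530 and PRXR1.

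Across the 6 genes, 0 were called higher and 1 was called lower, where 16.8% of the 17147 tested probe sets were called, 8.22% higher and 8.55% lower. All 6 passed the filter on low signal. At an unadjusted p under 0.05 there were 2, PRXR1 and AT5G42530. The arrays of the labels did not overlap for those same 2, against 23.6% of all tested probe sets. With 6 genes chosen on their wild type level, 1 call cannot show whether they stand apart from these shares as a set. The 126 probe sets with a wild type mean of 11 or more include the members, but only 8 of them name 1 nuclear gene. Of these 126, 24.6% were called, 25 higher (19.8%) and 6 lower (4.76%). The median difference of the members was -0.04, against -0.015 over all tested probe sets and 0.05 over those 126. The sign of the members' median is not stable: it was 0.03 when arrays were scaled on their 1000 brightest probe sets and -0.13 with quantile normalization.

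**Figure D3:**
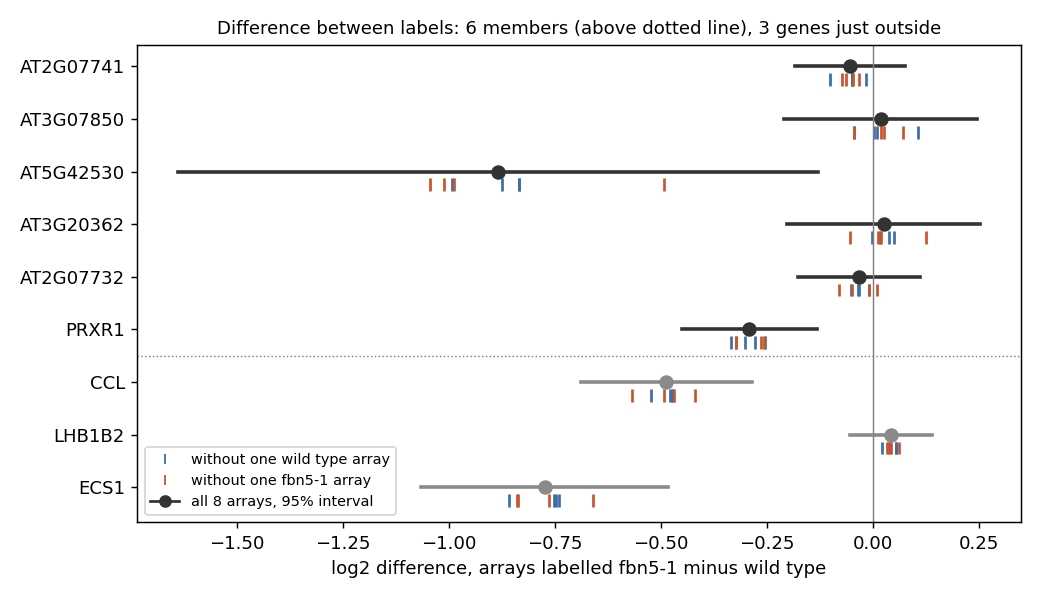
Log2 difference between labels (horizontal axis, fbn5-1 minus wild type) for the 6 members and, below the dotted line, the 3 genes just outside the threshold; circles are estimates from all 8 arrays and bars their 95% intervals. Short ticks are estimates with 1 array left out, blue for a wild type and orange for an fbn5-1 array; for AT5G42530 they run from -1.05 to -0.49.

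The members differed in their spread over the arrays of a label. Over the wild type arrays the SD ran from 0.05 for AT2G07732 and 0.07 for AT3G20362 to 0.19 for AT3G07850 and 0.22 for AT5G42530. Their median SD was 0.10, below the 0.18 of all tested probe sets and above the 0.05 of the 126 probe sets at 11 or more. On the arrays labelled fbn5-1 the SD ran from 0.05 for AT2G07741 to 0.79 for AT5G42530, with a median of 0.13. Wild type array 4 was the lowest wild type array for AT2G07741, AT5G42530 and PRXR1, and the highest for AT3G07850 and AT2G07732. Array 4 of fbn5-1 was the lowest of its label for 4 members, AT5G42530, AT3G20362, AT2G07732 and PRXR1. For AT2G07741 it was the highest.

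The annotation around 3 members touches organelle sequence. AT2G07732 and AT2G07741 lie near each other, with 33 annotated loci between them in the RefSeq gene order. Of the probe sets that name a numbered chromosome locus together with an organelle gene symbol, 29 of 29 named a locus whose number starts with AT2G07. One of these, naming AT2G07734 and rps4, is the probe set numbered directly after that of AT2G07732. Of the 2 probe sets that name AT2G07741 together with AT2G07835, 1 is numbered within the run of plastid and mitochondrial probe sets. Of the 12 probe sets numbered nearest to that of AT2G07741, 5 had the same 8 values as a probe set in that organelle run. The second probe set of AT3G20362 lies in the plastid run as well, between psbM and rps14. The probe set numbered directly after the first one repeats, on all 8 arrays, the values of a probe set in the organelle run. For AT3G07850, AT5G42530 and PRXR1, 0 of the 12 nearest probe sets repeated an organelle value. The same count was 0 for AT2G07732. None of the 6 members' own values were repeated by another probe set. How much of the signal of these 3 loci came from organelle transcripts was not tested.

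**Figure D4:**
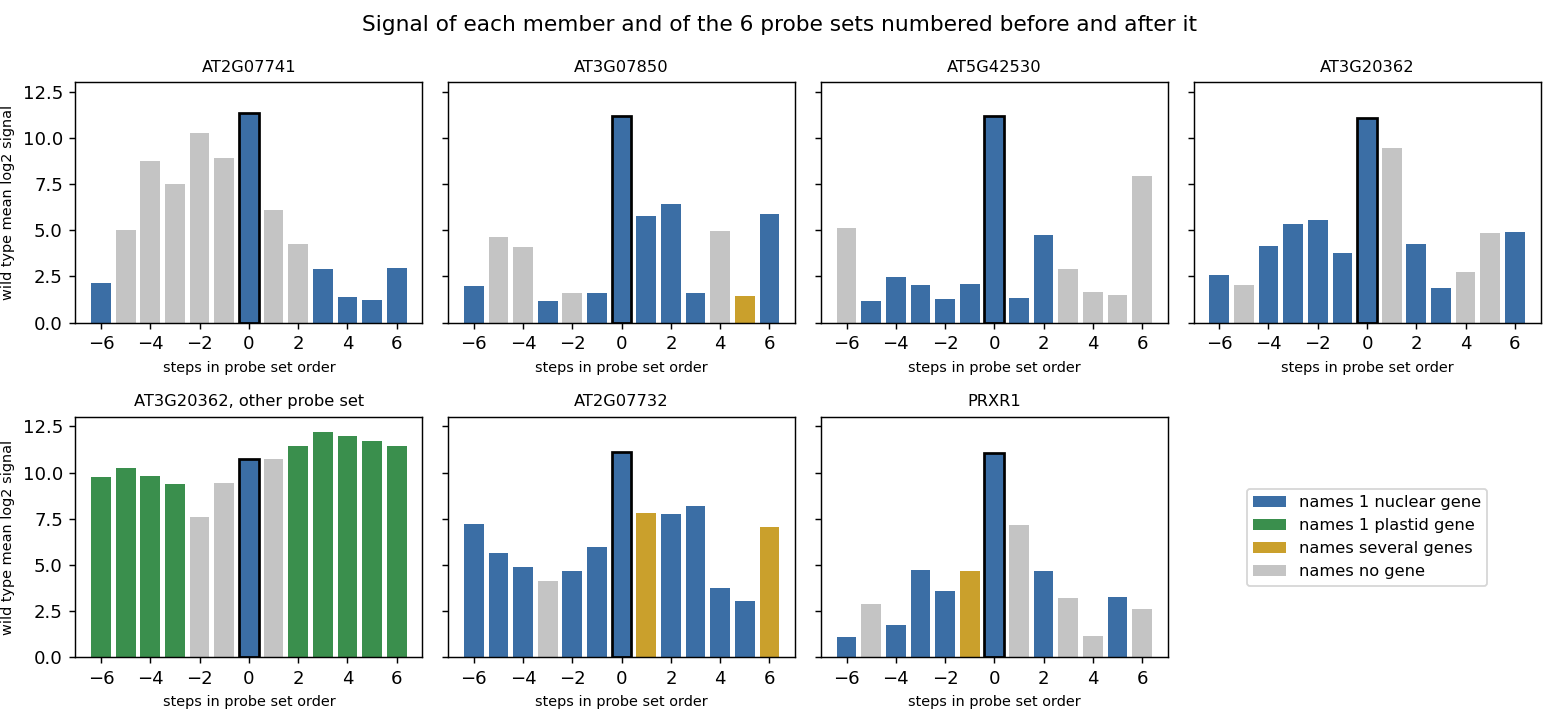
Mean wild type log2 signal (vertical axis) of each member's probe set, outlined at position 0, and of the 6 probe sets numbered before and the 6 after it (horizontal axis, steps in number order). Colours show what each probe set names; the second probe set of AT3G20362 stands among plastid genes, in green, while the first stands among nuclear genes, in blue, and probe sets with no gene, in grey.

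Without AT2G07741, AT2G07732 and AT3G20362, the remaining members were AT3G07850, AT5G42530 and PRXR1. Of these 3, PRXR1 was called lower, and the median difference, which is that of PRXR1, was -0.29. The split was made after the values were seen and carries no test.

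Among nuclear genes with wild type means from 4 to 11, more were called lower than higher in each brightness class. From 4 to 6, 318 of 3856 were lower and 252 higher. Of the 17 tested genes with a wild type mean from 10 to 11, 7 were lower and 0 higher under the fbn5-1 label, a share of 41.2%, with a median difference of -0.28. CCL and ECS1 were among these 7. From 9 to 10, 27 of 74 were lower and 4 higher. Under 4 the balance was the other way, with 54 of 2914 lower and 217 higher. The filter favours higher calls in that class. A gene with a wild type mean under 2.79 was tested only if its mean under the fbn5-1 label was higher. The grouping by wild type mean favours lower values in the other group, so it was repeated by the mean over all 8 arrays. From 10 to 11 there were then 6 of 19 lower and 1 higher, and from 9 to 10, 16 of 63 lower and 4 higher. Under 4 there were 82 of 2869 lower and 153 higher. In that grouping AT2G07741, AT3G07850, AT3G20362 and AT2G07732 were the genes left at 11 or more, and 0 of these 4 were called, at adjusted p of 0.549 or above. The difference in calls between the members and the genes below them was not tested.

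**Figure D5:**
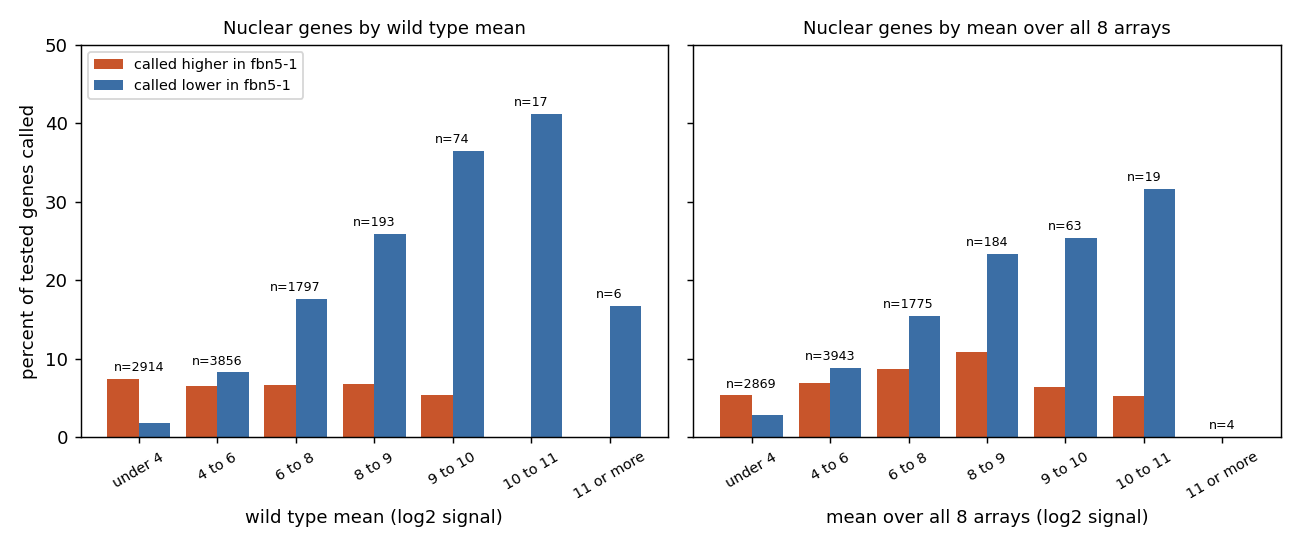
Percent of tested nuclear genes called higher (orange) or lower (blue) in the arrays labelled fbn5-1 (vertical axis), by mean log2 signal (horizontal axis) on the wild type arrays at left and on all 8 arrays at right; n is the number of genes tested. Lower calls rise to 41.2% at left and 31.6% at right for means of 10 to 11, while the brightest class holds 6 and 4 genes.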

How the data were processed

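The deposited series matrix holds log2 signals, 1 for each array and probe set. The log base is not stated and was read from their range. The submitters' processing notes name MAS5; other steps are not given in the sources used here. Probe sets were named through the platform annotation, and 16601 of those with 1 gene were found by gene number in a RefSeq table of assembly TAIR10.1, used for names and gene order only. No build is named for the array, so no coordinates are given.

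Groups were compared with limma 3.58.1 in R 4.3.3 (lmFit, eBayes with an intensity trend, two-sided), as fbn5-1 minus wild type. Tested probe sets had an 8-array mean above the 40th percentile (2.79), which left 17147 of 28583. P-values were adjusted by Benjamini and Hochberg over all of these and called under 0.05. The fit was tested on simulated data. The number of arrays limits the precision.

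The members and lists were chosen with earlier results of these data known. All 6 members were named, with the 3 genes just outside the threshold and FBN5. Planned function classes were filled by PRXR1 alone, as peroxide handling, and the other 5 members were not assigned. Planned promoter motifs were not analysed here. No block was used, as planned. Over all tested probe sets, samples sharing a replicate number did not deviate together, but single genes can differ in this. Alternatives covered scaling, an added constant, the filter, the eBayes trend, array weights, a block, left-out arrays and other rankings. A second deposited table of the same arrays was not used.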

Additional observations from a re-analysis of the deposited data

Results flagged for a closer look

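In 4 of 20 groups of 4 arrays, for the 6 members, the 3 genes just outside the threshold and FBN5, 1 array stood apart from the other 3 by more than Dixon's critical share of the group's range. Chance flags about 1 in 20 such groups, but these groups share the same 8 arrays, so their flags are not independent. AT5G42530 was at 9.1 on fbn5-1 array 4, against a mean of 10.67 on the other 3. ECS1 was at 10.71 on wild type array 4, against 11.04, and FBN5 (AT5G09820) at 5.15 on the same array, against 3.44. CCL was at 10.86 on wild type array 1, against 11.01.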

How the results depend on the processing

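The count of 1 member called lower, PRXR1, was 0 with arrays scaled on their 1000 brightest probe sets (adjusted p = 0.051), without an intensity trend (adjusted p = 0.0657), and with members ranked on the fbn5-1 arrays (5 genes) or on all 8 (4 genes). It was 0 to 1 with 1 array left out. It was 2 with array weights and with a replicate block, where AT5G42530 was also called (adjusted p = 0.0382 and 0.0471). Over all tested probe sets, same-numbered arrays did not pair. Their correlations of deviations were 0.16, -0.19, -0.04 and 0.002, and 1 of 4 wild type arrays correlated best with its own number. Single members differed in this. With the block the SE fell from 0.33 to 0.20 for AT5G42530 and from 0.07 to 0.05 for PRXR1. It also fell for AT3G20362, and rose for AT2G07741, AT3G07850 and AT2G07732. PRXR1 stayed lower in sign in 19 of 19 refits and called in 12 (adjusted p from 0.00714 to 0.0657). The cause of these changes was not tested.

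The median difference of the members stayed between -0.06 and -0.03 with 1 array left out. All probe sets called numbered 2876, and 4450 with array weights, 1731 with the replicate block, and 1736 to 3854 with 1 array left out. FBN5 had 0.60 to 1.2025 with 1 array left out, called without wild type array 4, and 1.14 with array weights, also called. Lower thresholds were chosen after the data were seen. With 13 genes, 5 were lower (38.5%), and with the 23 genes at 10 or more, 8 (34.8%), with a median of -0.24. In both lists 0 were higher. Over all tested probe sets, 8.55% were lower and 8.22% higher. These lists were picked on wild type level, which favours lower values under the other label. The same holds for the 150 brightest genes on the wild type arrays. Of these 150, 7 were higher and 48 lower (32%, median -0.20). Ranked on the fbn5-1 arrays they were 17 and 31 (median -0.08), and on all 8 arrays 12 and 39 (median -0.15). Without the 3 members whose annotation touches organelle sequence, the median was -0.29. A limit of 100 or 200 genes changed nothing, since 6 genes reached the threshold. Averaging the probe sets of a gene removed AT3G20362.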
